A study of Mus musculus with 29 samples.

Results

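The genes described here encode the core proteins of the spliceosomal small nuclear ribonucleoproteins (snRNPs), the SF3A and SF3B subunits of the U2 snRNP, and the SR splicing factors. They were taken by symbol from the table of raw counts: names made of Snrp and a letter from a to g with an optional digit, names made of Sf3a or Sf3b and a digit, and names made of Srsf and a number. The rule found 31 of the 24448 gene rows, of which 11 encode snRNP proteins, 3 SF3A subunits, 6 SF3B subunits and 11 SR proteins. The rule also allows Snrp followed by digits only, and 0 rows carried such a name.

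RNA was measured in 29 mouse libraries of the BDF1 strain. The 9 control embryos and the 8 hydroxyurea embryos were each 1 embryo made by injecting a cumulus cell nucleus into an enucleated oocyte, activated for 6 h with 10 mM strontium. They were collected as 2-cell embryos 28 h after activation. Hydroxyurea, an inhibitor of ribonucleotide reductase, was given at 10 uM for the first 24 h after activation in the treated group, and control embryos were kept in medium without it. The third group was 12 single cumulus cells, the somatic cell type that supplied the donor nuclei, with no treatment named. Smart-seq2, which copies whole transcripts into cDNA, was used for every library. The labels name no oocyte donor, animal or batch for any library. P-values therefore measure only how far these embryos differ from each other, and the 12 cells are treated as 1 sample without a test.

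Splicing removes introns from pre-mRNA in the nucleus. The U1 snRNP recognises the start of an intron and the U2 snRNP its branch point, and a ring of Sm proteins is assembled around the RNA of most spliceosomal snRNPs. SF3A and SF3B bind the U2 RNA and hold the branch point, while SR proteins bind exonic sequence and help recruit the snRNPs to splice sites. In the mouse 2-cell embryo the embryonic genome begins its main wave of transcription while much of the maternal RNA is degraded, so that transcripts of both origins can be present.

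Promoter sequence is shown for the 4 genes whose levels moved most firmly with the embryos' 2-cell transcripts, described below, and which had sequence outside annotated untranslated regions. RefSeq (GRCm38.p6) gave a start for 27 of the 31 genes, and 250 bases before each start were searched on both strands. The motifs were the ETS core CCGGAAG, the GC box GGGCGG, the CCAAT box, the TATA box TATAAA, the homeobox core GGATTA bound by Obox and Crx factors, and a single consensus each for NRF1 and Dux. Capitals mark matches on either strand, sequences read 5′ to 3′ on the gene's strand, and the last base of each 250-base window lies just before the start.
The Snrpc line (chr17:27839837-27839973, plus strand) stops where an exon of Snrpc annotated as untranslated begins, and the other windows are whole. GENCODE starts Snrpc further upstream, at chr17:27838150, so this window lies inside the gene as annotated there.
Snrpc: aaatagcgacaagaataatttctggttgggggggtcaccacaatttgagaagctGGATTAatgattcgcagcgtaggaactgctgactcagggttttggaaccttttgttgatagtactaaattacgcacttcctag
The Srsf5 window lies at chr12:80945249-80945498 on the plus strand.
Srsf5: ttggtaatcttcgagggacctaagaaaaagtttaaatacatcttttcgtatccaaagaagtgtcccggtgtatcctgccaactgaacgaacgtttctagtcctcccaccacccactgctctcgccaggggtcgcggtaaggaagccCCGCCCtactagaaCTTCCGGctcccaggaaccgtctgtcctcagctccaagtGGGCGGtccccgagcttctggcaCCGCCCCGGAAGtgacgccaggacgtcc
The Srsf2 window lies at chr11:116853095-116853344 on the minus strand.
Srsf2: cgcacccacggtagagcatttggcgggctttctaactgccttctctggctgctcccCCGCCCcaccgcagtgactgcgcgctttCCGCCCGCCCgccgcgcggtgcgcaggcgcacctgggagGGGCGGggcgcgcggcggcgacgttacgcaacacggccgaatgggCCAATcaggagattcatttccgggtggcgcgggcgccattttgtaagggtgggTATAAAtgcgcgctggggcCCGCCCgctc
The Srsf1 window lies at chr11:88047123-88047372 on the plus strand.
Srsf1: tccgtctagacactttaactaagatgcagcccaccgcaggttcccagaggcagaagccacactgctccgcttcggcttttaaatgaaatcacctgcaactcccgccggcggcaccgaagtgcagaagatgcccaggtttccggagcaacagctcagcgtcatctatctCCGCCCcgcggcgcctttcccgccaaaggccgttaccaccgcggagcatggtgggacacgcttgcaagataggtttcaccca

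These promoters do not share 1 layout. Srsf5 held the ETS core at 90 and 23 bases before its start, the nearer match sharing a base with a GC box. Snrpc held it at 39 bases, beyond the stretch printed and in the exon annotated as untranslated. Srsf2 had the only TATA box of the 4, at 29 bases, a CCAAT box at 82 bases and 5 GC boxes, of which a pair overlap, while Srsf1 had a single GC box. Snrpc held GGATTA at 196 and 103 bases before the start, the nearer match also in that untranslated exon of Snrpc. On the opposite strand, the windows of Srsf5, Srsf1 and Srsf2 overlap annotated exons of Gm20337, 2010015M23Rik and Mfsd11. The ETS core occurred in 13 of the 27 genes (48.1%), against 16.2% of the 8827 genes tested in embryos that have a window and 10.1% of all 17224 table genes with a window. The GC box was found in 70.4% of the 27 against 64.0% of the genes tested, and the CCAAT box in 29.6% against 41.6%. TATAAA occurred in 14.8% against 7.68%, the NRF1 motif in 3.70% against 2.03%, and GGATTA in 3 genes (11.1%) against 6.22%. The Dux consensus matched 0 windows of the 27 and 1 of the 8827. The median GC content of the windows was 60.8% for the splicing genes and 59.6% for the genes tested. A window was available for 567 genes whose levels rose with the 2-cell transcripts. Of those 567, 19.0% held the ETS core, 57.7% the GC box and 42.2% the CCAAT box. TATAAA occurred in 8.99% of them, the NRF1 motif in 2.47% and GGATTA in 8.11%. A match shows only that the letters are present.

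Library depth bears on the comparisons as follows. Counts summed over genes ranged from 1801261 to 3472116 in control embryos, from 2442541 to 3757492 in hydroxyurea embryos and from 317195 to 4051494 in cumulus cells. The ribosomal transcript Rn45s took 16.2 to 32.5% of counts in control embryos, 15.2 to 28.98% in hydroxyurea embryos and 49.3 to 86.6% in cumulus cells. Cumulus cell 2 had the 86.6% and only 17 of the 31 genes with a read, and cumulus cell 10 was the shallowest. Listed oocyte and early-embryo genes summed to a median of 19271 CPM (counts scaled to a common library sum) in control embryos, 15042 in hydroxyurea embryos and 61.6 in cumulus cells. Listed cumulus and granulosa genes summed to a median of 911 CPM in cumulus cells, with Cyp19a1 at 0, against 74.4 and 92.5 CPM in control and hydroxyurea embryos. These sums ran from 40.6 to 8554 CPM in cells, 27.0 to 133 in control embryos and 44.2 to 147 in hydroxyurea embryos. The lowest cell thus lay within the control range, and these markers did not set every cell apart from the embryos.

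The 31 genes together took 0.184 to 0.383% of gene counts in control embryos, 0.175 to 0.372% in hydroxyurea embryos and 0.0214 to 0.320% in cumulus cells. Every control embryo had reads for 29 to 31 of them. Levels of different genes were compared only as the deposited FPKM, which is the count divided by gene length and by the library's sum of gene counts. On that scale the median over the 31 genes was between 23.5 and 40.0 in each control embryo and between 21.2 and 43.6 in each hydroxyurea embryo.

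**Figure D1:**
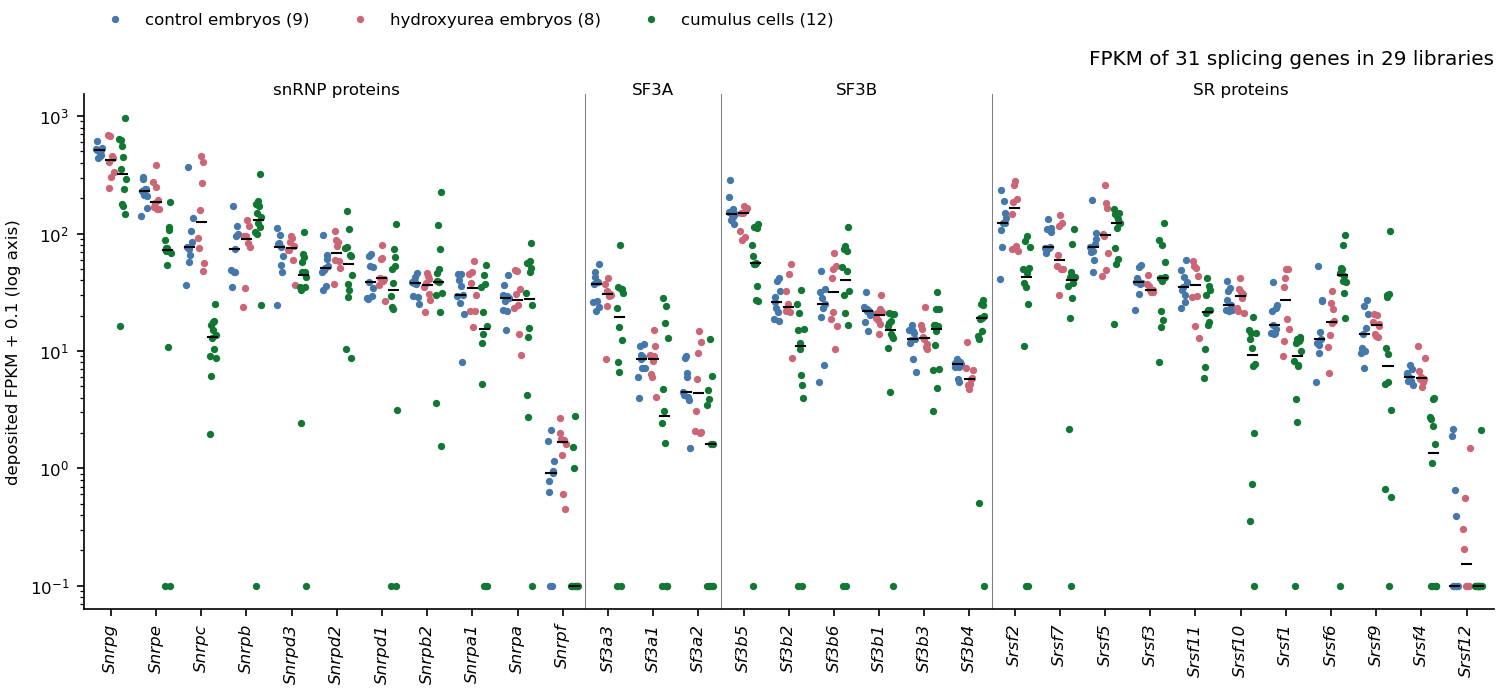
Deposited FPKM plus 0.1, on a log axis, of the 31 splicing genes in each library, with genes ordered by mean control level within each family. Dots are libraries and black bars are group medians; Snrpg lies highest, Snrpf and Srsf12 lie near 0, and Snrpc is lower in cumulus cells than in embryos.

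Among the Sm ring proteins, which are assembled as a ring of equal parts, FPKM differed widely between genes. Snrpg, the SmG protein (chr6:86371304-86379328, plus strand, GRCm38), had an FPKM of 525, 619, 516, 444, 500, 458, 510, 463 and 531 in control embryos 1 to 9. It was 687, 245, 407, 680, 302, 460, 442 and 335 in hydroxyurea embryos 1 to 8. The groups overlapped, with hydroxyurea embryos spread both below and above all controls. Snrpg had the highest FPKM of the 7 ring genes in 9 of 9 control embryos, 8 of 8 hydroxyurea embryos and 11 of 12 cumulus cells. It is also the shortest of the 31, at 393 bases of counted length. Of the 1606 50-base stretches in all its annotated transcripts, 187 (11.6%) occur in another annotated gene. The share within the counted length was not measured.

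Snrpe, the SmE protein (chr1:133603871-133610291, minus strand), followed at 226 ± 52.7 FPKM (SD, n = 9) in control embryos and 222 ± 76.5 (n = 8) in hydroxyurea embryos. Its control values were 141, 229, 304, 294, 214, 241, 239, 166 and 207, all below the lowest Snrpg value. In hydroxyurea embryos Snrpe was at 273, 168, 180, 380, 251, 162, 194 and 163 FPKM, which overlapped the controls. Snrpb, which encodes SmB, Snrpd3, Snrpd2 and Snrpd1 came next, with control means of 81.1, 70.9, 54.5 and 43.7 FPKM. Their ranges between embryos overlapped from each gene to the next. Without Snrpf, the highest ring gene lay 11.6-fold over the lowest in control embryos, 9.19-fold in hydroxyurea embryos and 9.76-fold in cumulus cells.

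Snrpf, the SmF protein (chr10:93583029-93589706, minus strand), was close to 0 in all libraries. Its FPKM was 1.62, 0.534, 0.683, 0, 2.01, 0, 0.817, 0.856 and 1.06 in control embryos 1 to 9. In hydroxyurea embryos it was 0.354 to 2.58, and it was listed above 0 in 3 of 12 cumulus cells. Of its 50-base stretches, 89.5% occur in another annotated gene, the highest share of the 31 genes, and the counting could split or drop such reads. Its level was therefore not compared with those of its ring partners.

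The U1 and U2 proteins outside the ring lay lower, apart from Snrpc. Snrpc encodes the U1-C protein, which contacts the start of the intron, and averaged 112 ± 100 FPKM in control embryos and 195 ± 163 in hydroxyurea embryos. The U1 protein gene Snrpa and the U2 protein genes Snrpa1 and Snrpb2 had control means of 28.1, 31.1 and 35.9 FPKM. Of the 10 tested snRNP genes Snrpg varied the least between control embryos and Snrpc the most, with coefficients of variation of 16.0% and 92.5% of TMM-scaled CPM. TMM, the trimmed mean of M-values, is the scaling that the tests below use.

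In SF3A, Sf3a3 stood above its partners. Its FPKM in control embryos 1 to 9 was 25.8, 36.8, 47.1, 42.5, 22.0, 26.6, 38.6, 54.9 and 23.8. Every control value lay above those of Sf3a1 (mean 8.05 ± 2.36) and Sf3a2 (5.27 ± 2.44). In hydroxyurea embryos Sf3a3 was at 37.0, 8.38, 32.1, 24.0, 41.7, 29.01, 30.7 and 29.9 FPKM, with embryo 2 alone below the control range. Sf3a1 had 5.90, 3.89, 10.95, 9.14, 8.41, 7.01, 8.85, 11.3 and 7.09 FPKM in controls. In hydroxyurea embryos it had 9.19, 6.29, 5.92, 8.14, 14.97, 8.88, 11.01 and 3.91, so these groups overlapped.

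In SF3B, the small subunit Sf3b5 was highest. Its FPKM was 152, 205, 287, 131, 143, 137, 161, 121 and 148 in control embryos and 104, 150, 88.1, 149, 171, 92.8, 158 and 166 in hydroxyurea embryos. The groups overlapped, and control embryo 3 was highest of all. Sf3b2 followed with control values of 18.8, 28.6, 25.8, 23.0, 39.5, 21.2, 18.0, 41.9 and 32.5 FPKM. Its hydroxyurea values were 21.7, 32.6, 22.5, 24.8, 45.5, 21.6, 55.2 and 8.61, and these spread below and above all controls. Sf3b1, the subunit that touches the branch point, was at 21.6 ± 4.59 FPKM in controls and 20.4 ± 4.76 in hydroxyurea embryos. Sf3b6, Sf3b3 and Sf3b4 had control means of 24.7, 12.4 and 7.20 FPKM. Between control embryos Sf3b6 varied the most of the SF3 genes, at 54.2% of its mean TMM-scaled CPM, and Sf3b4 the least, at 19.3%.

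Among SR proteins Srsf2, which encodes SC35, and Srsf7 led. Srsf2 had an FPKM of 40.9, 107, 235, 77.0, 122, 187, 122, 149 and 136 in control embryos and 73.9, 145, 186, 259, 280, 77.9, 195 and 71.2 in hydroxyurea embryos. Srsf7 was at 75.2, 68.1, 110, 74.0, 133, 75.1, 76.3, 111 and 103 in controls and 52.4, 65.6, 30.1, 117, 143, 49.5, 123 and 50.1 in hydroxyurea embryos. In both genes the groups overlapped, and hydroxyurea embryos 4, 5 and 7 were the highest of their arm. Srsf5 followed at 87.7 ± 42.9 FPKM in controls, and Srsf3, Srsf11, Srsf10, Srsf1, Srsf6, Srsf9 and Srsf4 had control means from 39.2 down to 6.03. Srsf12 was listed above 0 in 4 of 9 control embryos, 4 of 8 hydroxyurea embryos and 1 of 12 cumulus cells, with a highest value of 2.07 FPKM. Srsf6 varied the most between control embryos and Srsf4 the least, at 80.4% and 14.3% of their mean TMM-scaled CPM.

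Of the 31 genes, 29 passed the filter on low counts, and Snrpf and Srsf12 did not. Over these 29 the median coefficient of variation was 30.5% in control embryos, against 44.2% over the 11476 genes tested and 38.1% over those with a mean of at least 10 CPM. In hydroxyurea embryos it was 40.3%, against 49.0% and 43.7%. The difference between the arms was not tested.

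The comparison of hydroxyurea with control embryos asks whether the transient exposure changed these transcripts 28 h after activation. None of the 29 genes was called by edgeR's quasi-likelihood test at a Benjamini-Hochberg adjusted p under 0.05, where 0% of the 11476 genes tested were called. At an unadjusted p under 0.05 the count was also 0 of 29, against 5.85% of all genes (3.81% higher and 2.04% lower). DESeq2 and limma-voom called 0 of the 29 as well. The fitted change was above 0 for 20 of 29, against 53.6% of all genes, with a median log2 fold change of 0.11 against 0.04. Of the 29, 12 changed sign in at least 1 of 27 other settings of the scaling, filter, tool or embryos used, and 17 kept theirs. Signs also depended on the model: with the 2-cell score described below as a covariate, 9 of the 29 were above 0. Scaling by ERCC spike-in RNA moved the median of all genes to 0.19 and that of the splicing genes to 0.23. In counts simulated at the embryos' mean levels and depths, the edgeR test called 22% of genes given a log2 change of 1. It called 88% of those given a log2 change of 2. Most changes of 1 log2 unit, and some of 2 log2 units, can therefore go uncalled.

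The 3 smallest p-values belonged to Snrpc, Srsf1 and Snrpd2. Snrpc had 29.5, 57.0, 286, 41.2, 52.5, 52.3, 74.4, 57.7 and 126 TMM-scaled CPM in control embryos 1 to 9. In hydroxyurea embryos 1 to 8 it had 72.2, 56.0, 117, 374, 191, 38.9, 356 and 39.5. The groups overlapped: control embryo 3 lay with hydroxyurea embryos 4, 5 and 7 well above the rest. The log2 fold change of Snrpc was 0.85 ± 0.49 (SE), with an adjusted p of 0.835 by edgeR.

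Srsf1, the SR protein also called ASF/SF2, had 82.8, 118, 219, 87.7, 71.6, 82.9, 78.3, 115 and 167 TMM-scaled CPM in control embryos. It had 51.4, 65.4, 188, 250, 258, 111, 319 and 79.7 in hydroxyurea embryos. Hydroxyurea embryos 4, 5 and 7 lay above every control, and embryos 1 and 2 below every control. Its log2 fold change was 0.54 ± 0.33 (edgeR adjusted p = 0.840). Snrpd2, which encodes SmD2, had 24.2, 15.7, 48.3, 22.7, 23.2, 18.0, 29.5, 26.4 and 31.4 in controls against 18.9, 50.3, 27.8, 46.1, 35.9, 44.1, 32.8 and 23.4 in hydroxyurea embryos. These groups overlapped too, and its log2 fold change was 0.39 ± 0.26 (edgeR adjusted p = 0.844).

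**Figure D2:**
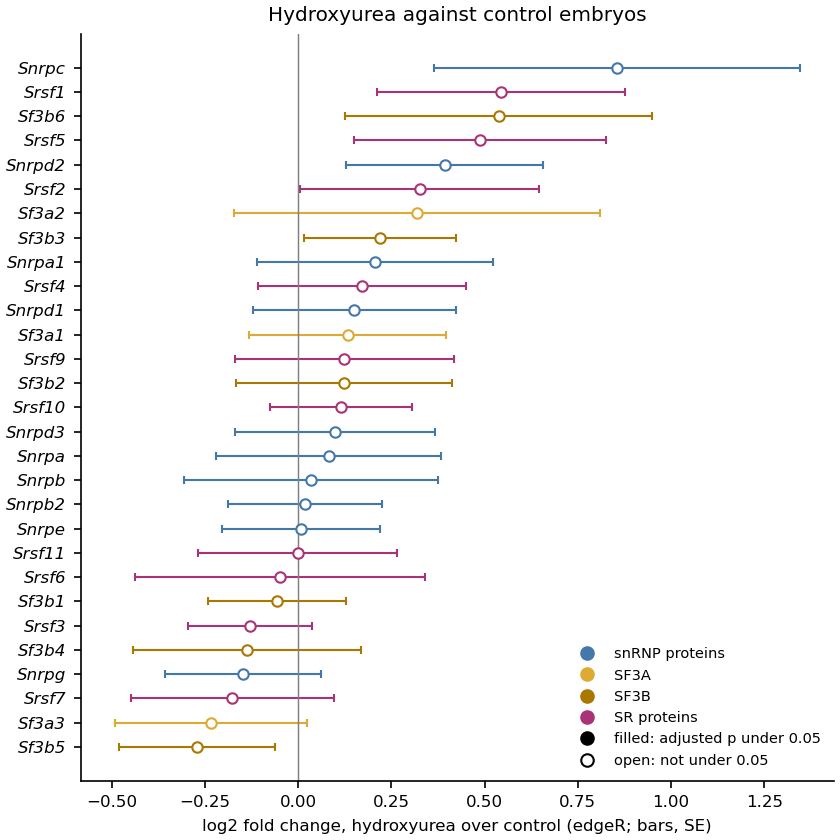
Log2 fold change of hydroxyurea (n = 8) over control embryos (n = 9) for the 29 tested splicing genes, with bars for the standard error. All points are open, since none had an adjusted p under 0.05; Snrpc lies highest at 0.85 and Sf3b5 lowest at -0.27.

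By family, the snRNP genes ran from -0.15 for Snrpg to 0.85 for Snrpc on the log2 scale. SF3A ran from -0.23 for Sf3a3 to 0.32 for Sf3a2, and SF3B from -0.27 for Sf3b5 to 0.54 for Sf3b6. SR genes ran from -0.18 for Srsf7 to 0.54 for Srsf1. The standard errors lay between 0.17 for Srsf3 and 0.49 for Sf3a2.

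The embryos differed in transcripts typical of the 2-cell stage, and some splicing genes moved with them. A 2-cell score was taken as the mean log2(TMM-scaled CPM + 1) of 8 genes, Zfp352, Sp110, AF067063, Tcstv1, Tcstv3, Usp17lc, Tdpoz3 and Tdpoz4, the members of a list of 12 genes known for 2-cell expression that passed the filter. Tcstv, Usp17 and Tdpoz genes belong to families of near-identical copies, so their single counts are uncertain. The score was 7.52 in control embryo 3 and 3.73 to 4.25 in the other 8 controls. In hydroxyurea embryos 1 to 8 it was 3.71, 5.09, 6.49, 7.48, 6.00, 3.08, 6.83 and 3.51. The means were 5.27 ± 1.68 (SD) in hydroxyurea and 4.40 ± 1.18 in control embryos, a difference of 0.87 with p = 0.228 in a 2-sided exact permutation test. The slope of each gene on this score was fitted by edgeR over the 17 embryos with treatment as a term. This fit was chosen after the data had been seen.

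Of the 29 genes, 5 rose with the score and 0 fell, at an adjusted p under 0.05 over the 11468 genes outside the score. Over all those genes 6.37% rose and 1.67% fell, or 8.04% in either direction. At an unadjusted p under 0.05 the slope was positive for 14 of 29, against 13.8% of all genes, and negative for 0, against 9.32%. The fitted slope was above 0 for 25 of 29, against 46.5%, with a median of 0.15 against -0.02 log2 units per unit of score. The 5 genes were Snrpc, Srsf5, Srsf2, Srsf1 and Sf3a2.

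Snrpc had the steepest slope, 0.69 ± 0.09 (SE; adjusted p = 9.82e-05 by edgeR). Its levels, given above, were highest in hydroxyurea embryos 4 and 7 and control embryo 3, which have the 3 highest scores. Hydroxyurea embryos 6, 8 and 1, whose scores were lowest, had 38.9, 39.5 and 72.2 TMM-scaled CPM. Hydroxyurea embryo 3 is an intermediate case, with a score of 6.49 and 117 TMM-scaled CPM, below the 126 of control embryo 9. All annotated transcripts of Snrpc hold 6625 50-base stretches, against a counted length of 760 bases. Of these stretches 6.07% occur in another annotated gene, and 690 other genes hold such a stretch. The share was 20.7% for Srsf2, 15.9% for Sf3a2, 10.1% for Srsf5 and 0.88% for Srsf1. The effect of shared sequence on the slopes of these genes was not tested.

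Srsf5, an SR protein also known as SRp40, had a slope of 0.48 ± 0.07 (adjusted p = 0.000204 by edgeR). It had 135, 113, 328, 74.3, 109, 102, 124, 149 and 180 TMM-scaled CPM in control embryos and 74.7, 161, 151, 460, 282, 86.7, 318 and 105 in hydroxyurea embryos. Control embryo 3 and hydroxyurea embryos 4, 5 and 7 were again above all the others. Srsf2 had a slope of 0.41 ± 0.08 (adjusted p = 0.00367). Its TMM-scaled CPM was 82.8, 199, 457, 139, 216, 373, 215, 252 and 318 in controls and 146, 271, 342, 529, 501, 159, 432 and 127 in hydroxyurea embryos. Here control embryo 6, with a score of 4.25, lay above hydroxyurea embryo 3.

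Srsf1, with the values given above, had a slope of 0.39 ± 0.09 (adjusted p = 0.00648 by edgeR). Hydroxyurea embryos 7, 5, 4 and control embryo 3 held its 4 highest values. Sf3a2 had a slope of 0.56 ± 0.17 (adjusted p = 0.0401), from low levels of 7.72, 6.80, 14.8, 14.2, 9.14, 11.3, 6.14, 5.58 and 2.82 TMM-scaled CPM in controls. In hydroxyurea embryos it had 3.41, 4.84, 9.16, 16.98, 22.9, 3.43, 23.1 and 3.07. Its call was lost in 9 of the 17 fits that left out 1 embryo, where the adjusted p ran from 0.0330 to 0.105.

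**Figure D3:**
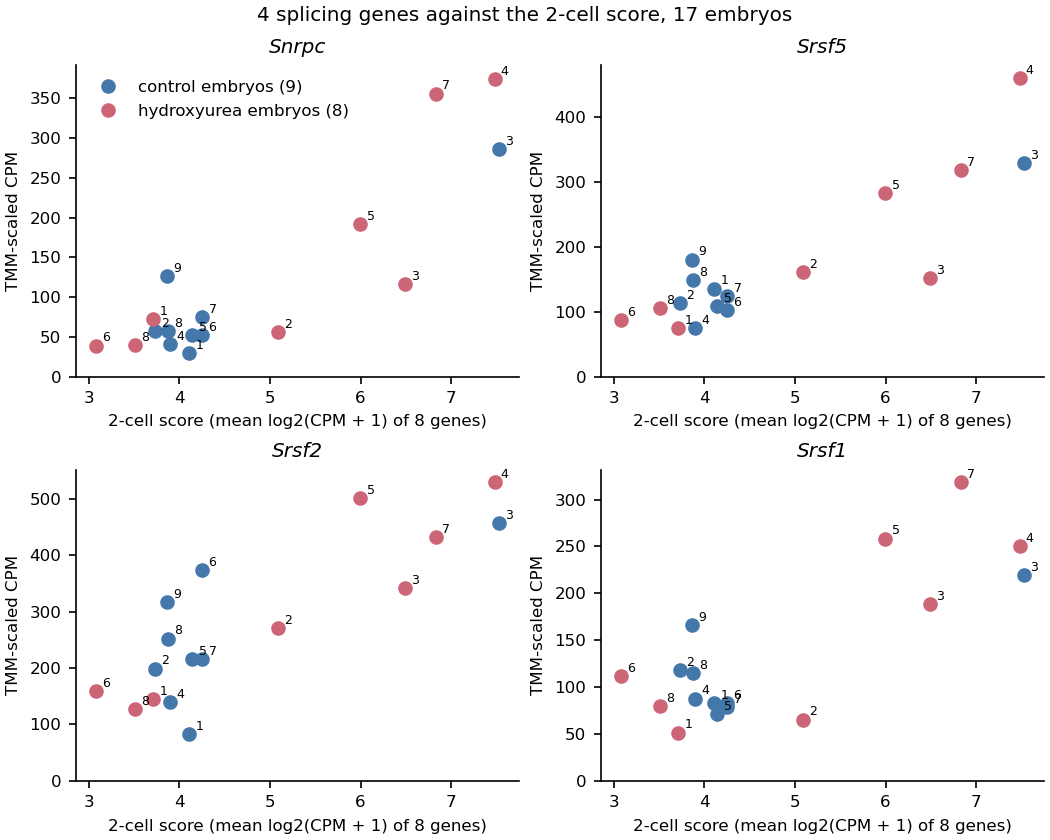
TMM-scaled CPM of Snrpc, Srsf5, Srsf2 and Srsf1 against the 2-cell score in 9 control and 8 hydroxyurea embryos, each numbered by its replicate. Control embryo 3 lies apart from the other 8 controls in score and above them in all 4 genes.

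Within the hydroxyurea embryos alone 4 of the 29 genes rose with the score: Snrpc (slope 0.73 ± 0.11, edgeR adjusted p = 0.00525), Srsf5, Srsf2 and Srsf1. Over all genes 2.7% rose in that fit. Within the 9 controls alone 0 rose at an adjusted p under 0.05, where 0.209% of all genes did. There 7 of 29 had a positive slope at an unadjusted p under 0.05, against 6.13% of all genes, and the adjusted p of Snrpc was 0.0808 by edgeR. That arm rests on control embryo 3: without it the remaining 8 controls span scores of 3.73 to 4.25, and the slopes of Snrpc, Srsf5 and Srsf1 were -0.71 ± 1.04, -0.39 ± 0.76 and -1.60 ± 0.70. In those 8 embryos 9 of the 29 slopes were above 0, and 2 were negative at an unadjusted p under 0.05, against 1.24% of all genes. Leaving control embryo 3 out of the 17 kept 4 calls, Snrpc, Srsf5, Srsf2 and Srsf1, where 367 of 11361 genes rose. Leaving out the 2 embryos farthest from the median score, control 3 and hydroxyurea 4, kept Snrpc (0.69 ± 0.15, adjusted p = 0.0254) and Srsf5 (0.46 ± 0.11, adjusted p = 0.0323). Srsf2 and Srsf1 then had adjusted p-values of 0.0504 and 0.0693, and 175 of 11600 genes rose.

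The number of genes with a read in an embryo ran against the score, with a Spearman coefficient of -0.51 over 17 embryos. The 29 genes' own coefficients with that number had a median of -0.48, against 0.03 over all genes tested. Their coefficients with the score had a median of 0.31, against -0.03 over all genes tested, so they were weaker. The part of the number of genes with a read in the slopes was not tested. Gene counts, the Rn45s share, the mitochondrial share and the mean of the oocyte list had coefficients with the score of -0.13, -0.14, -0.08 and 0.01. All these measures come from the same libraries as the gene levels.

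**Figure D4:**
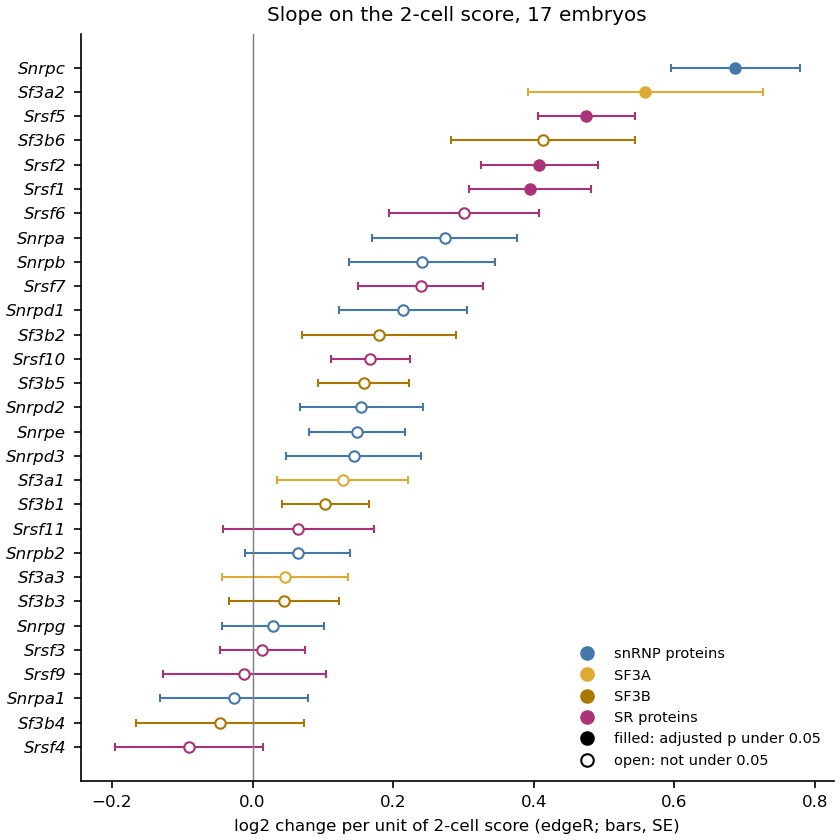
Slope of the 29 tested splicing genes on the 2-cell score over 17 embryos, in log2 units per unit of score, with bars for the standard error. Filled points are the 5 genes with an adjusted p under 0.05: Snrpc, Sf3a2, Srsf5, Srsf2 and Srsf1.

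The genes below the threshold spread from -0.09 for Srsf4 to 0.41 for Sf3b6 (edgeR adjusted p = 0.0521). In the Sm ring, the slopes ran from 0.03 for Snrpg to 0.24 for Snrpb, and 0 of the 6 tested ring genes passed. Srsf6, Srsf7 and Srsf10 had slopes of 0.30, 0.24 and 0.17 with adjusted p-values of 0.0849, 0.101 and 0.0643. With the score as a covariate, the hydroxyurea change had a median of -0.08 over the 29 genes, with 9 above 0 and 0 called, and that of Snrpc was 0.04.

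Other splicing genes from 6 lists gave 96 tested genes. For hydroxyurea against control 0 of the 96 had an adjusted p under 0.05 by edgeR, where 0% of all genes tested did. At an unadjusted p under 0.05 there were 6 of the 96, against 5.85% of all genes. With the 2-cell score 16 of the 96 rose (16.7%) and 0 fell, next to 5 of 29 (17.2%) for the genes of the rule and 6.37% of all genes. In the list of snRNP proteins outside the rule 2 of 13 rose: Snrnp35 of the U11/U12 snRNP (slope 0.57 ± 0.12, adjusted p = 0.00377) and the U1 protein gene Snrnp70 (0.35 ± 0.09, adjusted p = 0.0237). Of the U2 partners 0 of 9 passed. In the list of tri-snRNP and Prp19 complex genes 6 of 23 rose, among them Bud31 (0.37 ± 0.09, adjusted p = 0.0137) and Cdc5l (0.32 ± 0.09, adjusted p = 0.0219).

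Among genes for snRNP assembly 1 of 15 rose, the snRNP import adaptor Snupn (slope 0.39 ± 0.08, edgeR adjusted p = 0.00386). Of the SR kinases and partners 2 of 14 rose: Tnpo3, the nuclear import receptor of SR proteins (0.39 ± 0.09, adjusted p = 0.0110), and Son, a speckle protein (0.33 ± 0.09, adjusted p = 0.0294). Of the hnRNP genes 5 of 22 rose, Hnrnpa2b1 (0.31 ± 0.07, adjusted p = 0.00738) and Hnrnpm (0.32 ± 0.08, adjusted p = 0.0134) among them.

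The 12 cumulus cells were pooled and set beside the mean of the 9 control embryos, with 1 CPM added to each before the ratio. This compares a somatic cell with an embryo and has no test, and intervals are 95% exact Poisson intervals that cover counting error only. Snrpc differed most: 9.31 CPM in the pooled cells (8.13 to 10.6) against 84.8 ± 76.2 CPM in control embryos, which is 8.32-fold lower. In single cells Snrpc ran from 1.42 to 18.9 CPM with a median of 9.99, and all 12 cells lay below the lowest control embryo. With Rn45s and the mitochondrial rows left out its log2 ratio was -2.20, against -3.06 on all gene rows.

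On all gene rows 2 of the 30 splicing genes that reached 1 CPM in either group were at least 2-fold higher in cumulus cells and 9 at least 2-fold lower. Of all 15231 such genes 17.3% were higher and 53.8% lower. The median log2 ratio was -0.36 for the splicing genes and -1.15 for all genes. With Rn45s and the mitochondrial rows left out of every library, 10 of 31 were at least 2-fold higher and 1, Snrpc, lower, with a median of 0.52. Of all 16053 genes then compared 29.2% were higher and 41.3% lower, with a median of -0.37. The ratio changed sign between the scalings for 11 of the 31 genes.

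**Figure D5:**
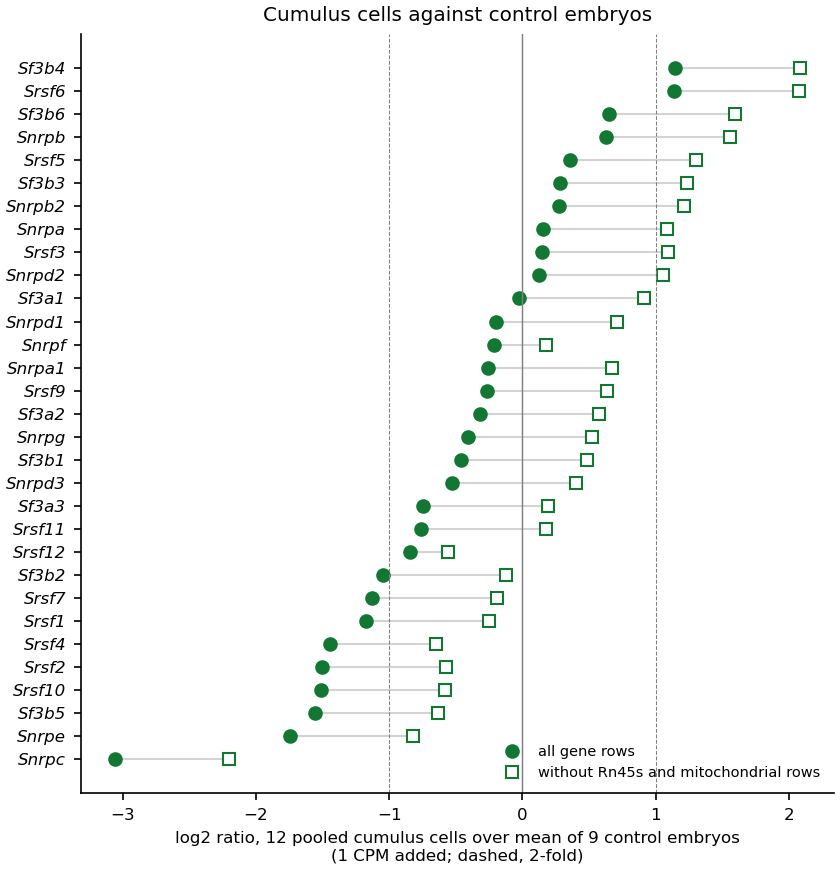
Log2 ratio of 12 pooled cumulus cells over the mean of 9 control embryos for the 31 splicing genes, with 1 CPM added, on all gene rows (circles) and without Rn45s and mitochondrial rows (squares). Snrpc is lowest on both scales and Sf3b4 and Srsf6 are highest on both.

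The genes at the lower end after Snrpc were Snrpe and Sf3b5. Snrpe had 32.5 CPM (30.3 to 34.9) in the pooled cells against 111 ± 25.95 in control embryos, 3.35-fold lower, and Sf3b5 had 40.4 CPM (37.9 to 43.1) against 121 ± 37.9, 2.94-fold lower. Snrpe was below the lowest control embryo in 11 of 12 cells and Sf3b5 in 12 of 12. Without Rn45s and mitochondrial rows their log2 ratios were -0.82 and -0.63, short of 2-fold. Srsf10, Srsf2, Srsf4, Srsf1, Srsf7 and Sf3b2 made up the 9, with folds from 2.85 to 2.07.

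At the upper end, Sf3b4 had 28.9 CPM (26.8 to 31.2) in the pooled cells against 12.5 ± 1.80 in control embryos, 2.21-fold higher, and 10 of 12 cells lay above the highest control. Without cumulus cell 6 its log2 ratio was 1.00, just short of 2-fold, which left Srsf6 as the 1 gene at least 2-fold higher. Of the 50-base stretches of Sf3b4, 45.3% occur in another annotated gene. Srsf6 had 150.2 CPM (145 to 155) against 67.6 ± 52.4, 2.20-fold higher. Only 2 of 12 cells lay above the highest control, embryo 3. Without Rn45s and mitochondrial rows the log2 ratios of Sf3b4 and Srsf6 were 2.08 and 2.07. Sf3b6 was the next gene, with 43.9 CPM against 27.5 ± 14.8 and a log2 ratio of 0.65.

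The ratios of the SR genes lay on both sides of 0 on each scale. On all gene rows Srsf6 was at least 2-fold higher, 5 of 11 at least 2-fold lower, and Srsf5 and Srsf3 had log2 ratios of 0.36 and 0.15. Without Rn45s and mitochondrial rows 3 of 11, Srsf6, Srsf5 and Srsf3, were at least 2-fold higher and 0 at least 2-fold lower. The median of the SR genes was -0.84 on the first scale and -0.19 on the second, next to the medians of -1.15 and -0.37 for all genes. The Sm ring genes had a median log2 ratio of -0.31 on all gene rows and 0.52 without Rn45s and mitochondrial rows. Leaving out cumulus cell 2, with its high Rn45s share, gave 2 higher and 8 lower with a median of -0.28, and leaving out cumulus cell 10 gave 2, 9 and -0.42.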

How the data were processed

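The authors deposited raw counts per gene and FPKM for 29 libraries. STAR 2.7.3a, FastQC and R 4.0.2 are named with the mm10 build in the submitters' processing notes. The counter is not given in the sources used here, nor are the annotation and the use of strand. In the deposited FPKM, each of 18588 genes checked equalled its count over the library's sum without the 92 ERCC rows and 1 length (tolerance 0.001). No column was left unmapped.

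The members and lists were chosen with earlier results of these data known. Counts of the 17 embryos were tested with edgeR 4.0.16 (TMM, filterByExpr, quasi-likelihood F test, Benjamini-Hochberg over all genes, threshold 0.05), with DESeq2 1.42.0, limma 3.58.1, other scalings and filters, and each library left out as alternatives. The script was tested on simulated data. Genes shown in full were the 2 with the highest control FPKM in each family, the 3 smallest p-values, the largest cumulus ratios and the extremes of variation; in other lists, up to 2 per direction. Positions are GENCODE on GRCm38. The 50-base stretches of all its transcripts were matched between genes, so the shares are not limited to the counted length. Antisense and overlapping genes cannot be told apart without strand: Sf3a2, Sf3b2, Sf3b3, Sf3b4, Snrpa, Snrpd3, Snrpf, Snrpg, Srsf1, Srsf2 and Srsf4 overlap genes on the other strand. Counting limits precision most for Snrpf and Srsf12.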

Additional observations from a re-analysis of the deposited data

Results flagged for a closer look

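In 7 of 58 sets of embryos (each of 29 genes in each arm) the highest or lowest embryo lay apart from its arm in TMM-scaled CPM by Dixon's criterion at the 95% level. The nominal rate of about 1 in 20 sets holds for independent sets of normally distributed values. The genes share the same embryos, so that rate does not measure chance here. Of the 7, 4 were control embryo 3, which has the highest 2-cell score of the controls: Snrpc at 286 with the next control at 126, Srsf5 at 328 with the next at 180, Sf3b5 at 215 with the next at 148, and Snrpd2 at 48.3 with the next at 31.4. Hydroxyurea embryo 2 was lowest for Sf3a3, at 13.9 with the next at 43.7, and highest for Sf3b4, at 19.98 with the next at 12.7. Hydroxyurea embryo 7 was highest for Sf3b1, at 216 with the next at 131.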

How the results depend on the processing

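For hydroxyurea against control, 0 genes of the 29 were called in any of 28 alternatives, including the replicate block (0 called, median log2 fold change 0.10). The deviations of same-numbered embryos had correlations of -0.10 to 0.19. These were not set beside those of differently numbered embryos, so they cannot show whether the numbers pair embryos. At an unadjusted p under 0.05 the count of higher genes ran from 0 to 3 when 1 embryo was left out, 3 without control 3 and 1 without hydroxyurea 1. The median ran from 0.02 to 0.16 in those fits. The count of positive slopes on the 2-cell score was 3 with ERCC scaling, where 192 of 11468 genes were called positive, against 730 in the main fit. It was 2 without the 2 farthest scores, where 175 of 11600 genes were called. In controls alone it was 0, where 24 of 11468 genes were called. It was also 0 in controls without the highest score, where 0 genes were called and Snrpc (-0.71), Srsf5 (-0.39) and Srsf1 (-1.60) changed sign. With 1 embryo left out it was 4 to 7, where 367 to 802 genes were called. For cumulus cells, leaving out Rn45s and mitochondrial rows gave 10 higher, 1 lower and a median of 0.52; 1 library left out gave 1 to 2 higher, 8 to 10 lower and medians of -0.52 to -0.28. Rescaling FPKM to a common sum per library moved the control median of the members from 29.3 to 73.5 and kept their order. The causes of these changes were not tested. Some alternatives also use smaller samples or other denominators. Low counts limit Snrpf and Srsf12, and depth limits single cumulus cells.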
